A study of Saccharomyces cerevisiae with 2 samples.

Results

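Serine is carried to the ribosome by several transfer RNAs that read different codons. Here the 6 nuclear genes of the serine tRNAs with the anticodons CGA, GCU and UGA are described, chosen by their names and their place outside the mitochondrial genome, out of 252 tRNA genes listed, 239 of them nuclear. One is the gene tS(CGA)C (SUP61), 2 are the tS(GCU) genes of chromosomes VI and XV, and 3 are the tS(UGA) genes SUP19, SUP17 and SUP16. Small RNA was sequenced from 1 library of a cdk1-as1 strain and 1 library of a WT strain (CDK1) of Saccharomyces cerevisiae, budding yeast, to compare tRNA levels between the strains in S phase. Both cultures were held in G1 with α factor (15 mg/L for 3 h), washed free of it, and collected once microscopy placed them in S phase. The medium after the wash was YPD or YPD with nocodazole, and which of them these libraries had is not stated. The cdk1-as1 allele encodes an analog-sensitive form of the cyclin dependent kinase Cdk1, the main regulator of the yeast cell cycle, whose kinase activity is reduced in part even without the inhibitor, and the labels do not say that these cells received it. The study's strains derive from S288c, a standard laboratory background, and which of its derivatives gave these libraries is not stated.

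RNA polymerase III reads tRNA genes from promoter elements that lie inside the gene, the A box and the B box, and transcription stops at a run of T after the gene. Leader and trailer are cut from the precursor, an intron, where there is one, lies just after the anticodon and is spliced out, and CCA is added to the end. The tRNA with the anticodon CGA reads the codon UCG and comes from a gene that yeast cannot do without. That with GCU reads AGC and AGU, and that with UGA reads UCA. All of them are charged by the same seryl-tRNA synthetase, which recognises their long variable arm rather than the anticodon, and mutant forms of SUP61, SUP16, SUP17 and SUP19 are known as suppressors of nonsense mutations.

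The sequence of the genes decides what the counts can tell apart, so it is shown first, from the RefSeq copy of assembly R64 (sacCer3), 5′ to 3′. The first capitals mark the anticodon (positions 34 to 36, counted from the first base of the gene), and the capitals after them the intron (positions 38 to 56) of the genes that have one. Each of these introns has 19 nt.
tS(CGA)C: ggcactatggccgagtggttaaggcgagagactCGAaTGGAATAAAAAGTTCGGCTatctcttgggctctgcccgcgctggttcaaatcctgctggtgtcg
tS(GCU)F and tS(GCU)O: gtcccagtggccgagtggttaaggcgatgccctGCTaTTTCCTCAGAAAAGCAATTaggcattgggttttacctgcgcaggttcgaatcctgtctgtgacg
tS(UGA)E, tS(UGA)I and tS(UGA)P: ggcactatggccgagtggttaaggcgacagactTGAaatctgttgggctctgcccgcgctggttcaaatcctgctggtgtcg
The 3 tS(UGA) genes are identical over their whole length of 82 nt, and the 2 tS(GCU) genes are identical over 101 nt, intron included. Spliced tS(CGA) also has 82 nt and differs from tS(UGA) at 3 of them, G28C, C34T and C42G (the tS(CGA) base, its position in the spliced sequence, the tS(UGA) base), of which C34T is in the anticodon. Spliced tS(GCU) matched the other 2 sequences at 57 of 82 positions. The introns of tS(CGA) and tS(GCU) matched at 7 of 19 positions. All 6 genes hold a match to the B box motif core searched on the sense strand, GGTTCNA, as do 70.9% of the 275 nuclear tRNA genes of the annotation. In tS(CGA)C and the tS(UGA) genes the match reads GGTTCAA, a form held by 21.1% of the 275.

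Only bases outside the gene distinguish identical copies, and the 20 nt downstream of the tS(GCU) pair are shown for that reason, with the first run of 5 or more T in capitals.
tS(GCU)F: catttcTTTTTTaaattttt
tS(GCU)O: catttcTTTTTTgtgaattc
Such a run lies within 20 nt downstream of 96.7% of the 275 genes. The tS(GCU) genes share the first 12 of these bases, up to the end of the run, and upstream they matched at 10 of 20 positions.

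The members lie on 6 chromosomes. tS(CGA)C is on chromosome III from 227942 to 228042 on the + strand, with its intron from 227979 to 227997 and the nearest protein-coding gene, BUD31, 275 nt away. tS(GCU)F is on chromosome VI from 191513 to 191613 on the - strand, with its intron from 191558 to 191576, and lies 174 nt from FAB1 and 71 nt from the long terminal repeat (LTR) of a Ty1 retrotransposon. tS(GCU)O is on chromosome XV from 274673 to 274773 on the + strand, with its intron from 274710 to 274728, 183 nt from LAG2. The tS(UGA) genes have no intron. tS(UGA)E (SUP19) is on chromosome V from 288443 to 288524 on the - strand, 380 nt from a Ty1 LTR. tS(UGA)I (SUP17) is on chromosome IX from 248850 to 248931 and tS(UGA)P (SUP16) on chromosome XVI from 689565 to 689646, both on the + strand, 453 nt from RGI2 and 460 nt from NOT5. An LTR lies within 500 nt of 2 of the 6 members and of 62.5% of the 275 genes.

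For each gene the tables give an estimated count, which need not be whole, and an FPKM value, in which genes of different length can be compared. By definition FPKM scales fragments to gene length and to the size of the library. How spike-in RNA standards entered the deposited values is not given. Counts summed over all 252 genes to 1570 in cdk1-as1 and to 2952 in WT, and FPKM to 4408123 in cdk1-as1 and 10626670 in WT. All 6 members have a value in both libraries. They held 66.1 counts in cdk1-as1 and 142 counts in WT, and 4.33% of the nuclear FPKM in cdk1-as1 and 4.17% in WT. Intervals are exact 95% intervals of the rounded counts, Poisson for a count and Clopper-Pearson binomial for a ratio or share, and they cover counting error only. Each strain has 1 library and so no replicate, no difference between strains was tested, and each difference is one between these libraries. As bulk RNA was sequenced, fewer cells and less tRNA per cell cannot be told apart.

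In cdk1-as1 the levels of the members ran, from high to low, from 75437 FPKM for tS(GCU)F to 32259 for tS(UGA)E, 28560 for tS(UGA)P, 27817 for tS(UGA)I, 14174 for tS(GCU)O and 6937 for tS(CGA)C. In WT the order was tS(GCU)F at 146881 FPKM, tS(UGA)E at 122536, tS(UGA)I at 94478, tS(CGA)C at 36308, tS(GCU)O at 18372 and tS(UGA)P at 4565. tS(GCU)F was the highest member in both strains, ranking 14 of 198 nuclear genes in cdk1-as1 and 17 of 232 in WT, while the lowest member was tS(CGA)C in cdk1-as1 and tS(UGA)P in WT. In cdk1-as1 the count of tS(GCU)F, 34.9 (interval 24.4 to 48.7), lay above the intervals of the 5 others, whose own intervals overlapped. In WT the count intervals of all neighbours in the order overlapped, among them tS(GCU)F (45.8 to 77.2) with tS(UGA)E (24.4 to 48.7), and tS(CGA)C (8.40 to 24.7) with tS(GCU)O (2.20 to 13.1).

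**Figure D1:**
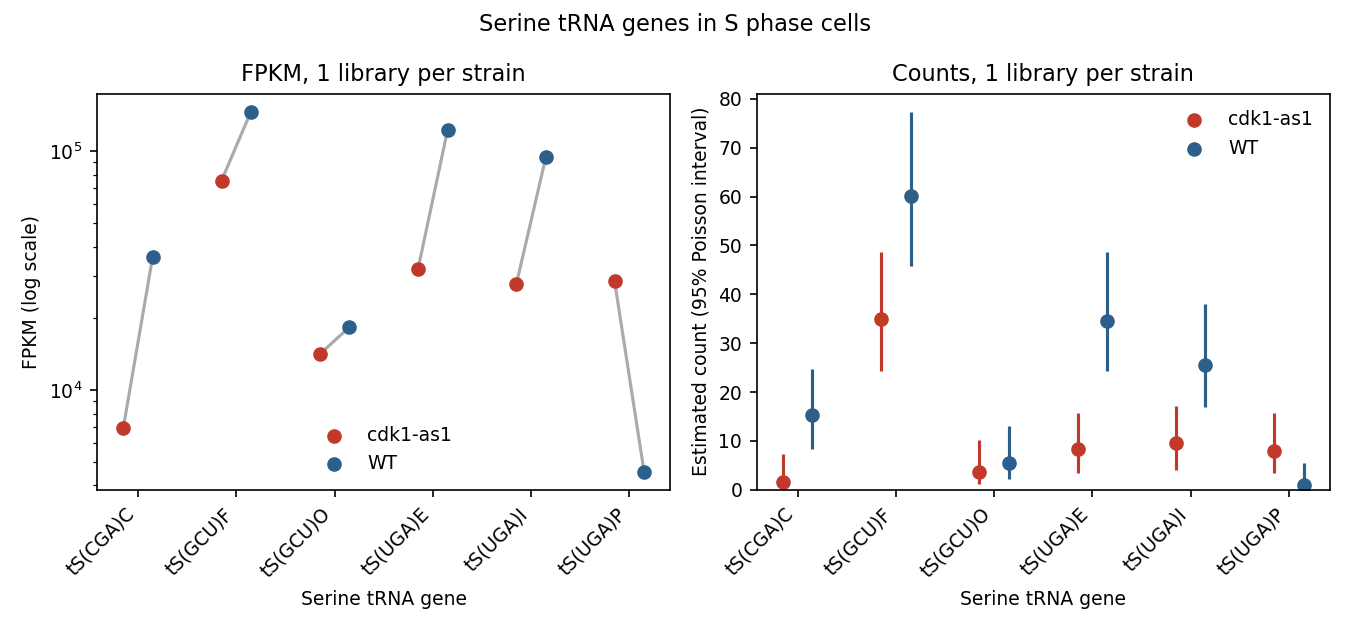
FPKM on a log axis (left) and estimated counts with exact 95% Poisson intervals (right) of the 6 serine tRNA genes, in the cdk1-as1 library (red) and the WT library (blue). For 5 genes the cdk1-as1 value lies below the WT value on both scales, and for tS(UGA)P it lies above (28560 FPKM in cdk1-as1, 4565 in WT).

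Levels in cdk1-as1 lay under those of WT for 5 of the 6 members, as they did for 91.1% of the 191 nuclear genes with a value in each library. Many of these genes share their values. The 191 hold 68 distinct pairs of values, and 73 of the 191 have at least 10 counts in 1 library. The log2 ratio of FPKM, cdk1-as1 over WT, was at or below −1 in 3 of the 6 members, against 67.0% of the 191 (60.3% with equal values counted as 1), and at or above 1 in 1 member, against 4.71%. The median of the 6 was −1.36 (38.9% of the WT level), beside −1.48 for the 191. Lower levels are thus shared by most nuclear tRNA genes. Scaling cdk1-as1 to the total FPKM of WT raises each log2 FPKM ratio by 1.27, and on that scale 3 of the 6 members were lower (median −0.093), against 63.4% of the 191. Summed over the 6 genes, the log2 ratio was −1.19 in FPKM (43.8% of the WT level) and −1.10 in counts (interval −1.55 to −0.67). The split of reads among the 6 genes plays no part in the summed counts. It can affect the summed FPKM, as FPKM per count differed between genes. The count ratio was close to the ratio of all counts (−0.91), which lay within its interval.

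tS(CGA)C, the one gene in yeast for the tRNA that reads UCG, had the lowest log2 ratio of the 6. It had 6937 FPKM in cdk1-as1 and 36308 FPKM in WT, or 19.1% of the WT level and a log2 ratio of −2.39. Behind these values stood 1.54 counts in cdk1-as1 and 15.3 counts in WT, a log2 count ratio of −3.32 (interval −6.08 to −0.80). That interval lay below 0 and included the ratio of all summed counts, −0.91. Set around the FPKM ratio it ran from −5.15 to 0.128 and included 0, so that on that scale a difference from the WT level was not detectable. With equal count totals it ran from −5.17 to 0.11 and included 0, so that a difference of tS(CGA)C from the ratio of the summed counts was not detectable at this depth. With equal FPKM totals its log2 FPKM ratio was −1.12, the only member still lower by at least 2-fold on that scale, where 22.0% of the 191 genes were. Among the 191 it ranked 42 from the lowest log2 ratio. At low counts the FPKM of a gene was often high for its count. For tS(CGA)C in cdk1-as1 count, FPKM and length together stood for a total of 2192 counts, against a median of 4634 (4295 to 5469) over the 48 nuclear genes with at least 10 counts in that library, and 130 of the 150 nuclear genes with fewer counts also lay below 4295. The same held in cdk1-as1 for tS(GCU)O (2603), tS(UGA)E (3178), tS(UGA)P (3419) and tS(UGA)I (4156). In WT, where the 73 genes with at least 10 counts ran from 3099 to 4248, it held for tS(UGA)P (2546) and tS(GCU)O (2992). The FPKM ratios of these genes thus differ from their count ratios. Of the counts of the 6 members tS(CGA)C held 2.32% in cdk1-as1 (interval 0.369 to 10.5) and 10.8% in WT (6.03 to 16.8), and these intervals overlapped.

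The tS(GCU) genes, whose tRNA reads AGC and AGU, lay nearest to the WT level of the 3 anticodons as deposited, though the count intervals of their sum and of the tS(UGA) sum overlapped, and with equal totals in FPKM the tS(UGA) sum lay nearer. Their summed level was 89612 FPKM in cdk1-as1 and 165252 FPKM in WT, 54.2% of the WT level and a log2 ratio of −0.88. In counts the sums were 38.7 in cdk1-as1 and 65.7 in WT, a log2 ratio of −0.76 (interval −1.37 to −0.17). With equal totals the log2 ratio of the sums turned to 0.39 in FPKM and to 0.15 in counts. Most of this was assigned to tS(GCU)F, with 75437 FPKM in cdk1-as1 and 146881 FPKM in WT, a log2 ratio of −0.96, at 34.9 counts in cdk1-as1 and 60.1 counts in WT (log2 count ratio −0.78, interval −1.42 to −0.15). tS(GCU)O had 14174 FPKM in cdk1-as1 and 18372 FPKM in WT, a log2 ratio of −0.37, and its 3.73 counts in cdk1-as1 and 5.55 counts in WT left the log2 count ratio anywhere from −2.85 to 1.49. With equal FPKM totals both genes were above 0, at 0.31 for tS(GCU)F and 0.90 for tS(GCU)O. The split between the copies was alike in the libraries, tS(GCU)F having 90.4% of their counts in cdk1-as1 (interval 75.8 to 97.1) and 91.6% in WT (81.3 to 96.6), although the genes are identical in sequence. A further pair of annotated genes on chromosome IV (1150842 to 1150941) and chromosome XII (784354 to 784453) lacks 1 base of tS(GCU)F and matches it otherwise. They are annotated as tRNAs of undetermined specificity and are not among the tRNA genes listed, so they have no values here. Whether reads from them were counted for the tS(GCU) genes was not tested.

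The tS(UGA) genes, whose tRNA reads UCA, had together 88636 FPKM in cdk1-as1 and 221579 FPKM in WT, 40.0% of the WT level and a log2 ratio of −1.32. Their counts summed to 25.9 in cdk1-as1 and 61.1 in WT, a log2 ratio of −1.24 (interval −1.95 to −0.55). With equal totals the log2 ratio of the sums was −0.052 in FPKM and −0.33 in counts. The copies did not share this value. tS(UGA)E (SUP19) had 32259 FPKM in cdk1-as1 and 122536 FPKM in WT, a log2 ratio of −1.93, at 8.41 counts in cdk1-as1 and 34.5 counts in WT (log2 count ratio −2.04, interval −3.45 to −0.996). That interval lay below the ratio of all counts, −0.91. With equal count totals the log2 ratio of tS(UGA)E was −1.13 (interval −2.54 to −0.084). Set around the FPKM ratio the interval ran from −3.34 to −0.88 and included both −0.91 and the ratio of all FPKM, −1.27. As tS(UGA)E is identical in sequence to its copies, its count depends on how reads were assigned to them. The count interval of the tS(UGA) sum included −0.91. tS(UGA)I (SUP17) had 27817 FPKM in cdk1-as1 and 94478 FPKM in WT, a log2 ratio of −1.76, at 9.48 counts in cdk1-as1 and 25.6 counts in WT (log2 count ratio −1.43, interval −2.81 to −0.39).

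tS(UGA)P (SUP16) was the exception, with 28560 FPKM in cdk1-as1 and 4565 FPKM in WT. Its log2 ratio of 2.65 (6.26-fold higher in cdk1-as1) was the highest of all 191 nuclear genes. It rests on 8.01 counts in cdk1-as1 (interval 3.45 to 15.8) and 0.953 counts in WT (0.0253 to 5.57), a log2 count ratio of 3.07 with an interval from 0.10 to 8.47. The same interval set around the FPKM ratio of 2.65 ran from −0.32 to 8.05 and included 0. In WT it ranked 209 of 232 nuclear genes by FPKM, and in cdk1-as1 42 of 198, next to its identical copies tS(UGA)E (40) and tS(UGA)I (43). In cdk1-as1 the 3 copies were thus assigned nearly equal levels, and in WT tS(UGA)P was assigned almost none. The copies are identical in sequence, so these values depend on how reads were assigned to them, which is not given. The share of tS(UGA)P in the counts of the 3 genes does not depend on how the libraries were scaled. It was 30.9% in cdk1-as1 (interval 14.3 to 51.8) and 1.56% in WT (0.0415 to 8.80). These intervals did not overlap, but they do not cover the assignment of reads. The shares of tS(UGA)E, 32.5% in cdk1-as1 and 56.6% in WT, and of tS(UGA)I, 36.6% in cdk1-as1 and 41.9% in WT, had overlapping intervals.

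**Figure D2:**
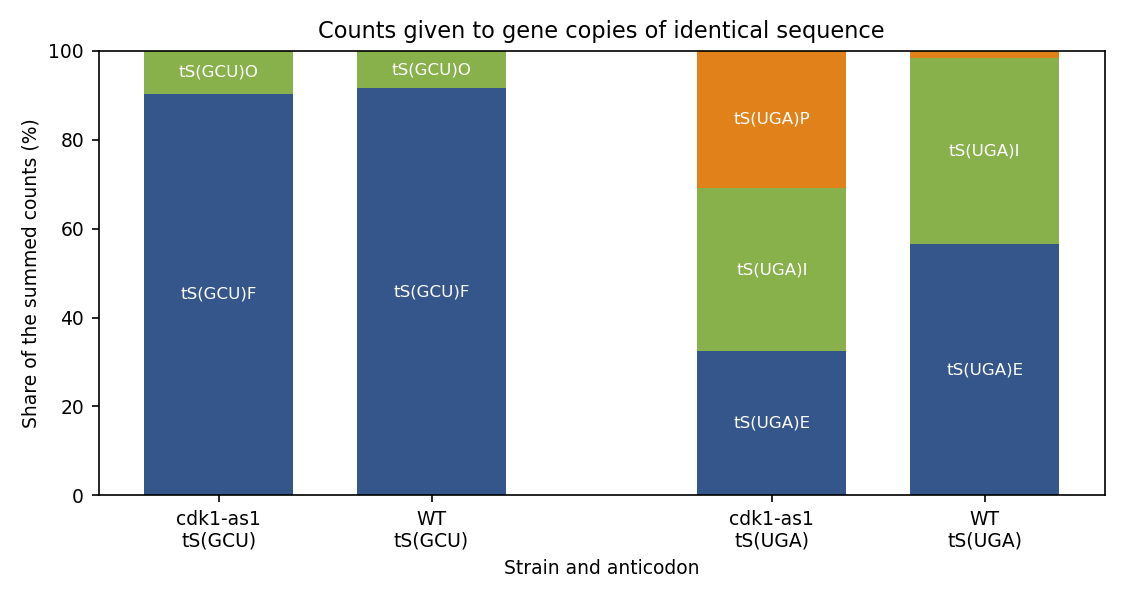
Share of the summed estimated counts (%) given to each of the identical tS(GCU) genes and tS(UGA) genes, with cdk1-as1 left of WT for each anticodon. tS(GCU)F has 90.4% in cdk1-as1 and 91.6% in WT, while the share of tS(UGA)P is 30.9% in cdk1-as1 and 1.56% in WT (the unlabelled strip at the top of that bar).

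Since the members of one anticodon are identical in sequence, the difference between them was set beside that of other identical copies in the tables. Nuclear tRNA genes with the same sequence on the same chromosome strand form 44 sets, of which 43 carry 1 value of count and FPKM per library for all their genes (equal to 3 decimals). The exception is the pair of tS(UGA)I and tS(UGA)P, both on the + strand. Where identical genes lie on both strands, no value is shared between the strands in 23 of 23 cases, the tS(GCU) genes and the tS(UGA) genes among them. The sources used here do not give how reads were assigned to copies, and its part in the values of tS(UGA)P was not tested.

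**Figure D3:**
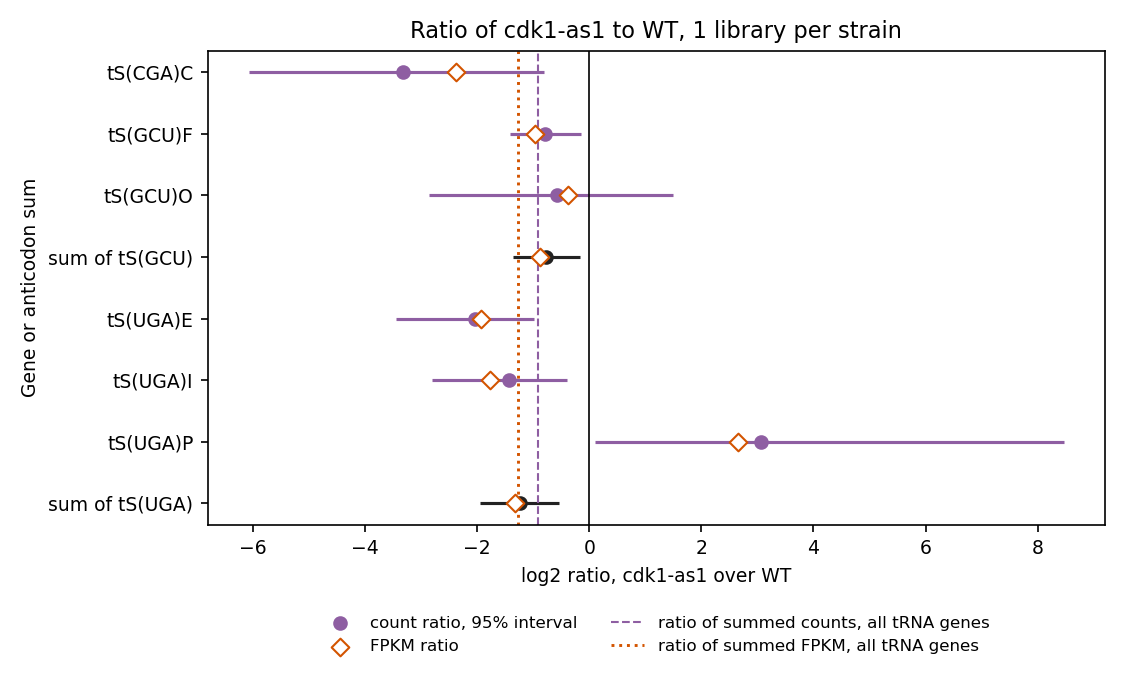
log2 ratio of cdk1-as1 to WT for each gene and for the sums over tS(GCU) and tS(UGA), as counts with exact 95% intervals (filled circles, sums in black) and as FPKM (open diamonds). Dashed and dotted lines mark the ratio of all counts (−0.91) and of all FPKM (−1.27). Both lie within the count interval of tS(CGA)C and of both sums, and the whole interval of tS(UGA)P (0.10 to 8.47) lies above them. The interval of tS(UGA)E (−3.45 to −0.996) lies below the ratio of all counts and includes that of all FPKM.

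The other nuclear serine genes, 10 identical tS(AGA) genes whose tRNA reads UCU and UCC, were all lower in cdk1-as1 in FPKM (median −1.36). They hold only 2 values, a log2 ratio of −1.36 for the 7 genes on the - strand and of −3.08 for the 3 genes on the + strand. The highest of them had 1.09 counts, and their counts summed to 4.35 in cdk1-as1 and 5.03 in WT (log2 ratio −0.21, interval −2.66 to 1.89), so the counts behind tS(AGA) are far fewer than those behind tS(GCU) and tS(UGA). The tS(AGA) sequence, which has no intron, matches tS(UGA) at 69 of 82 positions. The 3 intronic members, tS(CGA)C and the tS(GCU) genes, were lower in 3 of 3 cases with a median log2 FPKM ratio of −0.96, and the other intronic genes in 44 of 51 with a median of −0.99. The 3 tS(UGA) genes were lower in 2 of 3 cases with a median of −1.76, and the other intronless genes, tS(AGA) included, in 125 of 134 with a median of −1.65. Because copies share values, the 51 genes hold 29 distinct pairs of values and the 134 genes hold 33.

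**Figure D4:**
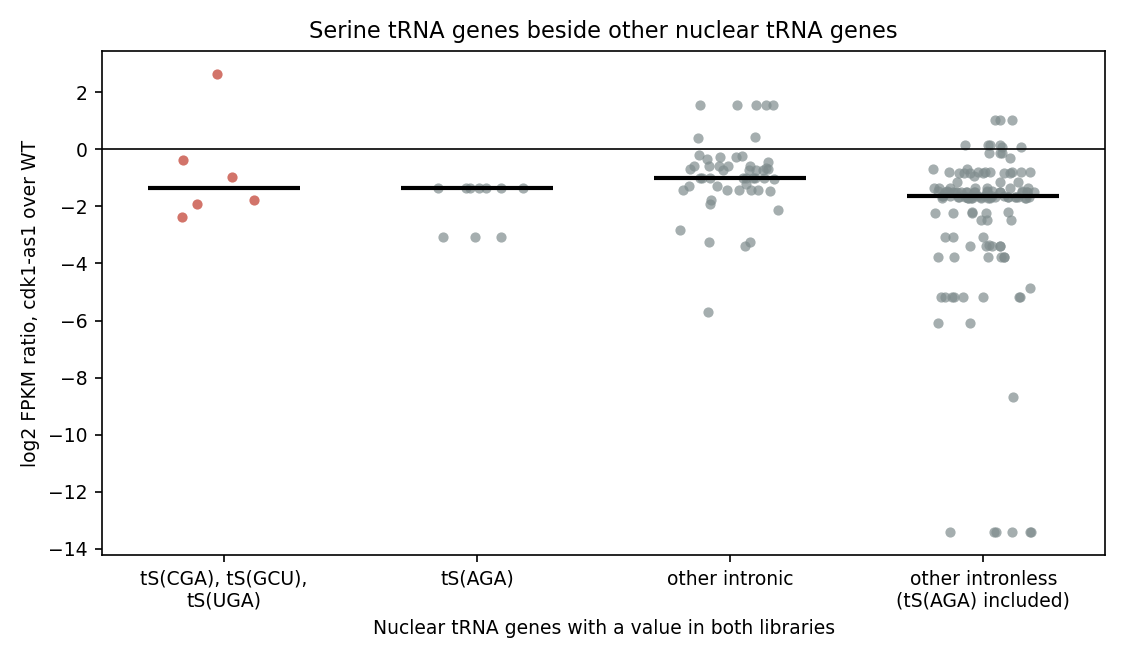
log2 FPKM ratio, cdk1-as1 over WT, of the 6 members (red), the 10 tS(AGA) genes, the 51 other intronic and the 134 other intronless nuclear genes, tS(AGA) included (grey), with a black bar at each median. 5 of the 6 members lie between −2.39 and −0.37, within the range of the grey groups, and tS(UGA)P at 2.65 lies above all other points.

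For each member the most similar genes outside serine were sought by distance in log10 FPKM over the 2 libraries, among 69 nuclear genes with at least 10 counts in 1 library. The 6 copies of the phenylalanine gene tF(GAA)F lay next to tS(GCU)F, at 0.0244 log10 units, with 77543 FPKM in cdk1-as1 and 154239 FPKM in WT. The proline gene tP(UGG)H was nearest to tS(UGA)E (0.111) and the leucine gene tL(UAG)L1 to tS(UGA)I (0.152). These 3 were also nearest among all 175 nuclear genes outside serine with both values, a wider set chosen after seeing the data. The other 3 members differed between the sets. For tS(CGA)C the nearest genes were the 5 copies of the valine gene tV(AAC)E1 (0.329) among the 69 and the 5 copies of the threonine gene tT(AGU)D (0.159) among the 175. For tS(GCU)O they were tV(AAC)E1 (0.344) among the 69 and the leucine gene tL(CAA)L (0.0459) among the 175. tS(UGA)P, itself under 10 counts in both libraries, had the largest of these distances in each set, 0.902 to the phenylalanine gene tF(GAA)M among the 69 and 0.594 to the 2 copies of the valine gene tV(UAC)B among the 175.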

How the data were processed

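The authors deposited, for 1 cdk1-as1 library and 1 WT library of S phase cells, a table of estimated counts and FPKM values per tRNA gene, and a side-by-side table of RPKM values that gives 0.1 to genes absent from a library. In the deposited tables the RPKM values equal the FPKM values for the 191 nuclear genes with both. The side-by-side table also holds the authors' fold changes, log10 values and a column headed FDR, which are not used. According to the study's methods a kit for miRNA isolation gave the small RNA, paired-end reads were sequenced and set against the Ensembl R64 annotation (sacCer3 in the submitters' processing notes) with normalization by ERCC spike-in standards, and modifications of mature tRNA may impair sequencing. Aligner and counter: not given in the sources used here, and the same holds for the way the standards entered the deposited columns.

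Genes were matched by position to RefSeq R64, in which all 239 nuclear genes were found. Flanking sequence other than that of the tS(GCU) genes is not reported here. Members are nuclear rows of the side-by-side table named tS(CGA), tS(GCU) or tS(UGA), and all are named. Log2 ratios of cdk1-as1 to WT were taken with no pseudocount over genes above 0.1 FPKM in both libraries. Counts were rounded for exact 95% intervals (scipy 1.17.1). PCR copies cannot be told from separate molecules. Ratios were tested on simulated data at 100 times the WT counts, and so not at the depth of these libraries. Intervals were tested on simulated whole counts at low means, with no split of reads among identical copies. Alternatives were equal totals, counts, pseudocounts of 1, 100 and 1000, filters at a mean of 10000 FPKM or at 10 counts, equal values counted as 1, and the side-by-side table. Members and lists were chosen with earlier results of these data known.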

Additional observations from a re-analysis of the deposited data

How the results depend on the processing

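At equal FPKM totals over all listed genes, each log2 FPKM ratio rises by 1.27. The ratio then changed sign for tS(GCU)F (0.31), tS(GCU)O (0.90) and the tS(GCU) sum (0.39), and moved to −0.66 for tS(UGA)E, −0.49 for tS(UGA)I and −0.052 for the tS(UGA) sum. The members lower in cdk1-as1 were then 3 (median −0.093), and 22.0% of all nuclear genes were at least 2-fold lower. With equal FPKM totals of nuclear genes the values were 0.29 for tS(GCU)F, 0.87 for tS(GCU)O, −0.68 for tS(UGA)E and −0.52 for tS(UGA)I, with 3 members lower (median −0.11). With counts at equal totals they were 0.13 for tS(GCU)F, 0.34 for tS(GCU)O and −0.52 for tS(UGA)I, with 3 members lower (median −0.20), and 0.15 for the tS(GCU) sum and −0.33 for the tS(UGA) sum (these sums chosen after seeing the data). Equal totals take out by construction any change that all tRNA genes share. Keeping the 4 members with at least 10 counts in 1 library gave a median of −1.84. That filter is tied to direction, as tS(CGA)C, tS(UGA)E and tS(UGA)I reached 10 counts only in WT, where they were higher. It removed tS(GCU)O and tS(UGA)P, the latter the one member higher in cdk1-as1, so the lower median is no result about the members. With identical sequences summed, chosen after seeing the data, 3 of 3 values were lower. The other 72 values, among them all those for tS(CGA)C and tS(UGA)P and all those with a pseudocount, kept their direction and stayed within the counting interval, or within 1.5 times for counts and percentages. No paired analysis was possible because each strain has 1 library, and for the same reason no library could be left out. Depth limits tS(CGA)C in cdk1-as1, tS(GCU)O in both libraries and tS(UGA)P in WT most, each with fewer than 6 counts there.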

Other observations

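The mitochondrial genome encodes serine tRNAs of its own, which are not among the 6 genes above. tS(GCU)Q1 had 92013 FPKM in cdk1-as1 and 65285 FPKM in WT (log2 ratio 0.50), at 37.0 counts in cdk1-as1 and 20.8 counts in WT (log2 count ratio 0.83, exact 95% interval 0.0068 to 1.66). tS(UGA)Q2 had 6764 FPKM in cdk1-as1 and 1971 FPKM in WT (log2 ratio 1.78), at 10.4 counts in cdk1-as1 and 0.941 counts in WT (log2 count ratio 3.46, interval 0.51 to 8.76). These intervals are those of the count ratios and were not set around the FPKM ratios, which were lower. Both mitochondrial serine genes thus had higher values in the cdk1-as1 library, while the summed nuclear genes of the same anticodons were lower. This did not hold for the mitochondrial genes together. Summed FPKM in cdk1-as1 was 42.1% of the WT sum over the nuclear genes, and 41.5% with the mitochondrial genes added. Whether the ratios of the serine genes differ beyond replicate error could not be tested with 1 library per strain.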
